A study of Sus scrofa with 4 samples.

Results

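KIT was followed as 1 gene of the 30282 measured in single-cell RNA sequencing (scRNA-Seq) of pig pancreas and of porcine pancreatic ductal organoids (PPDO). All features named KIT were summed in each library, which were a feature built from isoforms and its extension at the 3ʹ end. The gene was chosen because its measured level was high in primary duct cells and low in PPDO, so its levels in these groups and in the other cell classes are given as a description, without a test. KIT is a receptor tyrosine kinase of the cell surface. Its ligand, stem cell factor, is the product of KITLG and dimerizes the receptor, which then activates PI3 kinase, SRC family kinases and the RAS to ERK cascade. Mast cells, melanocytes, germ cells, blood stem cells and the interstitial cells of Cajal in the gut wall are known to need KIT, and in pigs rearrangements of the KIT locus give the dominant white coat. No sequence of KIT is shown, since no genome or sequence table was used here.

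The study profiled PPDO next to the pancreas in order to compare the organoids with the tissue they were derived from. There were 4 libraries, 2 of PPDO and 2 of primary pancreas, each from 1 organoid line or 1 pig, so that n = 2 in each group throughout. The PPDO were grown from ductal fragments picked by hand from digested pancreas, 1 line from a late postnatal and 1 from an adult pig, sequenced after different numbers of passages, in Cultrex matrix with WNT3a, R-spondin1 and noggin, the growth factors EGF and FGF10, gastrin, nicotinamide, prostaglandin E2 and the TGF-beta receptor inhibitor A83-01. By the paper's account, most cells at these passages had left the mature duct state. PPDO of early passages are not among these libraries, so the PPDO values below do not describe them. The labels do not say which PPDO library is which line, so line, pig age and passage cannot be told apart. The pigs of the study were of German landrace background, and their KIT alleles were not examined here. The primary libraries came from a wild type and an *INS*-eGFP pig of late postnatal age, processed on different days. In the study's first sample the ducts were isolated by hand and live cells were sorted. In its second sample, cells that bound the duct lectin DBA, *INS*-eGFP cells and cells of the whole suspension were sorted and pooled. Primary pancreas 1 and 2 are taken here to be those samples. Pig, day and way of sorting cannot be told apart.

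After filtering, 8885 and 7337 PPDO cells and 5676 and 4274 primary cells were kept. The median number of unique molecular identifiers (UMIs, each marking 1 captured molecule) per cell was 34176 and 34459 in PPDO and 10177 and 23652 in primary pancreas. Any pair of libraries shared 10 to 23 cell barcodes, among 6999 to 9853 per library. Clusters of primary cells were named from marker lists. A cluster is written as ductal-like where the ductal list led. It also had to meet a depth limit or have a ductal marker among its leading genes. Cluster 21 (145 cells of primary pancreas 1) had ductal as its best list too, with 4 markers, but was left unnamed because its cells were shallow for their library (median 1196 UMIs) and no ductal marker was among its leading genes. KIT itself was among the genes used to cluster the cells, and clustering without it left the values close to unchanged (mean 1477 CPM in ductal-like cells). Ductal-like cells numbered 2167 and 1189, and the ductal list (9 genes matched) summed to 28284 and 32372 CPM (UMIs of a gene scaled to the same total of summed UMIs for every group of cells) in them. In PPDO the same list summed to 1208 and 1107 CPM, and the duct-defining genes CFTR (the chloride channel), SCTR (the secretin receptor) and PKHD1 (fibrocystin) were each at 0.549 to 1.14 CPM, so that PPDO as sequenced here lacked most of the duct marker level. Of the other markers, SOX9 stood at 0.703% of its ductal-like mean, and KRT7 and BMPR1A at 67.3% and 93.9%.

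KIT was highest in ductal-like cells among the cell classes of both pancreata. It reached 1044 CPM (95% exact Poisson interval 1034 to 1053) in ductal-like cells of primary pancreas 1 and 1924 CPM (1907 to 1941) in those of primary pancreas 2, a mean of 1484 ± 623 CPM (SD, n = 2). Ductal-like cells held 94.0% and 96.1% of all KIT UMIs of their libraries while being 38.2% and 27.8% of the cells. Of the UMIs of all genes they held 43241090 of 76005758 in primary pancreas 1 and 25377970 of 118680820 in primary pancreas 2. These shares of cells and UMIs follow how cells were picked and sorted. In PPDO KIT stood at 62.8 CPM (61.9 to 63.7) and 130.8 CPM (129.4 to 132.2), a mean of 96.8 ± 48.1 CPM (SD, n = 2). The groups did not overlap, and the ratio of a primary to a PPDO library ran from 7.98 to 30.6 over the 4 pairs. The intervals cover counting error only and are far narrower than the spread between the libraries of a group, which was 1.84-fold between the pancreata and 2.08-fold between the PPDO. As a share of its ductal-like mean, KIT in PPDO stood at 6.52%, against 0.0962% for CFTR, 0.125% for SCTR, 0.0228% for PKHD1 and 1.54% for SLC4A4, the bicarbonate transporter of duct cells.

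The share of cells with a KIT UMI was compared after every cell was thinned at random to 3000 UMIs, since deeper cells show a UMI more often. At this depth 86.6% (95% exact Clopper-Pearson interval 85.1% to 88.1%) and 96.8% (95.6% to 97.7%) of ductal-like cells carried KIT, against 17.2% (16.4% to 18.0%) and 26.9% (25.8% to 27.9%) of PPDO cells. Without thinning the shares were 95.2% and 99.7% in ductal-like cells and 51.4% and 72.1% in PPDO. Thinning left out 113 and 0 ductal-like cells and 61 and 10 PPDO cells that were shallower. Acinar-like cells, which make digestive enzymes, and endocrine-like cells were the classes with the lowest mean KIT CPM. Of the former 3.2% and 5.36% and of the latter 4.11% and 2.49% carried a KIT UMI. Their median depths were 7329 and 16292 UMIs for acinar-like and 12878 and 39409 UMIs for endocrine-like cells. The PPDO shares lay above these in both libraries, but neither class was shown to lack KIT. A PPDO library has no class of its own known to lack KIT.

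The distribution over cells was set side by side at 10000 UMIs per cell, which left out 444 and 50 ductal-like cells and 522 and 176 PPDO cells that were shallower. This thinning was a separate random draw from that behind the shares of cells with a UMI. Of cluster 9 (led by AKR1C2 and ROS1) 57 of 304 cells remained in primary pancreas 1. The median ductal-like cell held 9 KIT UMIs in primary pancreas 1 and 18 in primary pancreas 2, with 25th and 75th percentiles of 6 and 14 and of 12 and 25. The fullest cells held 41 and 60 KIT UMIs. Of ductal-like cells 2.38% and 0.702% had no KIT UMI at this depth. The variance over the mean of the count was 4.32 and 4.73, where random sampling alone gives 1, so that ductal-like cells were unequal in KIT beyond counting error. In PPDO 64.6% and 49.2% of cells had no KIT UMI, the median cell had 0 and 1, and the fullest had 17 and 28. The 10th percentile of ductal-like cells in primary pancreas 1 (3 UMIs) was reached by 10.7% and 19.3% of PPDO cells, and its median (9 UMIs) by 0.227% and 1.27%.

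**Figure D1:**
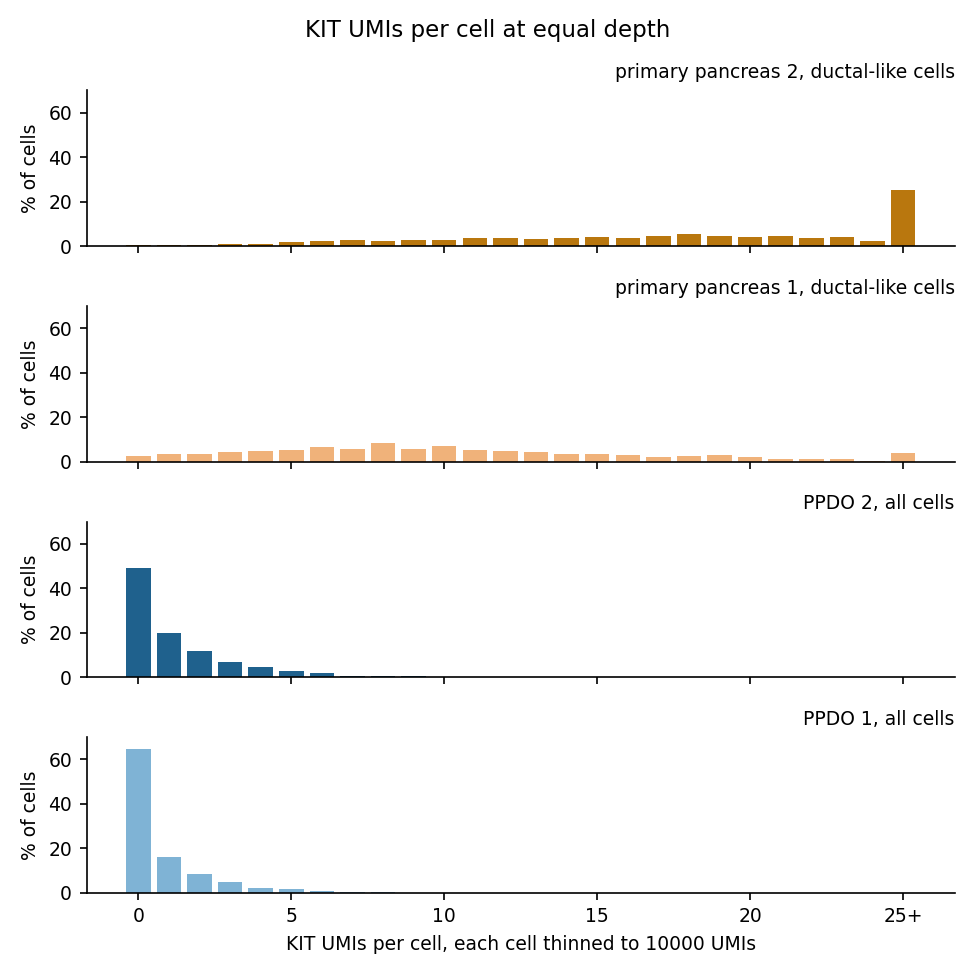
KIT UMIs per cell (horizontal axis, with 25 or more in the last bar) after thinning each cell to 10000 UMIs, as a percent of cells (vertical axis), for ductal-like cells of both primary libraries and all cells of both PPDO libraries. PPDO cells pile up at 0, while ductal-like cells spread around medians of 9 and 18 UMIs.

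Within the ductal-like class both pancreata were built from different clusters, which are named here by their genes. In primary pancreas 1 most ductal-like cells (1354) fell in cluster 0, led by OSGIN1, AADAC and EREG, the last an EGF family ligand, and KIT was at 1002 CPM there. A further 430 cells formed cluster 7, led by AQP9, SLC47A2, FTCD and CFTR, with KIT at 1276 CPM. In primary pancreas 2 nearly all ductal-like cells (1110) formed cluster 1, in which KIT itself was the leading gene, at 1935 CPM. Cluster 9, led by AKR1C2, ROS1 and KCNJ15, was the only ductal-like cluster with more than 1 cell of each pancreas (304 and 79), and held 947 and 1690 CPM. The small cluster 23 (78 cells of primary pancreas 1, with CWH43 and SLC4A4 leading) had KIT at 634 CPM, with a median of 2779 UMIs per cell. It was under the depth limit for naming and took its name through SLC4A4, a ductal marker. All the clusters of primary pancreas 2 thus lay above all those of primary pancreas 1, and the ratio between the libraries was 1.78 within cluster 9 and 1.84 over the whole class.

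A list of genes taken as a dissociation response (9 matched, among them FOS, FOSB, ATF3 and EGR1) differed strongly between these clusters. It also holds EREG and OSGIN1, which lead cluster 0 in these same data. Its high sum in cluster 0 was thus in part set by the genes that mark this cluster. The list summed to 9239 CPM in cluster 0 and 5279 CPM in cluster 23. In cluster 7 it was at 464 CPM, in cluster 1 at 827 CPM, and in cluster 9 at 1543 and 1093 CPM. KIT was highest in primary pancreas 1 where this list was lowest, in cluster 7, and cluster 7 was still below the clusters of primary pancreas 2. Cluster 9 of primary pancreas 1, however, had less KIT (947 CPM) than cluster 0 (1002 CPM), although its list sum was lower. The part of the dissociation response in the KIT level was not tested.

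**Figure D2:**
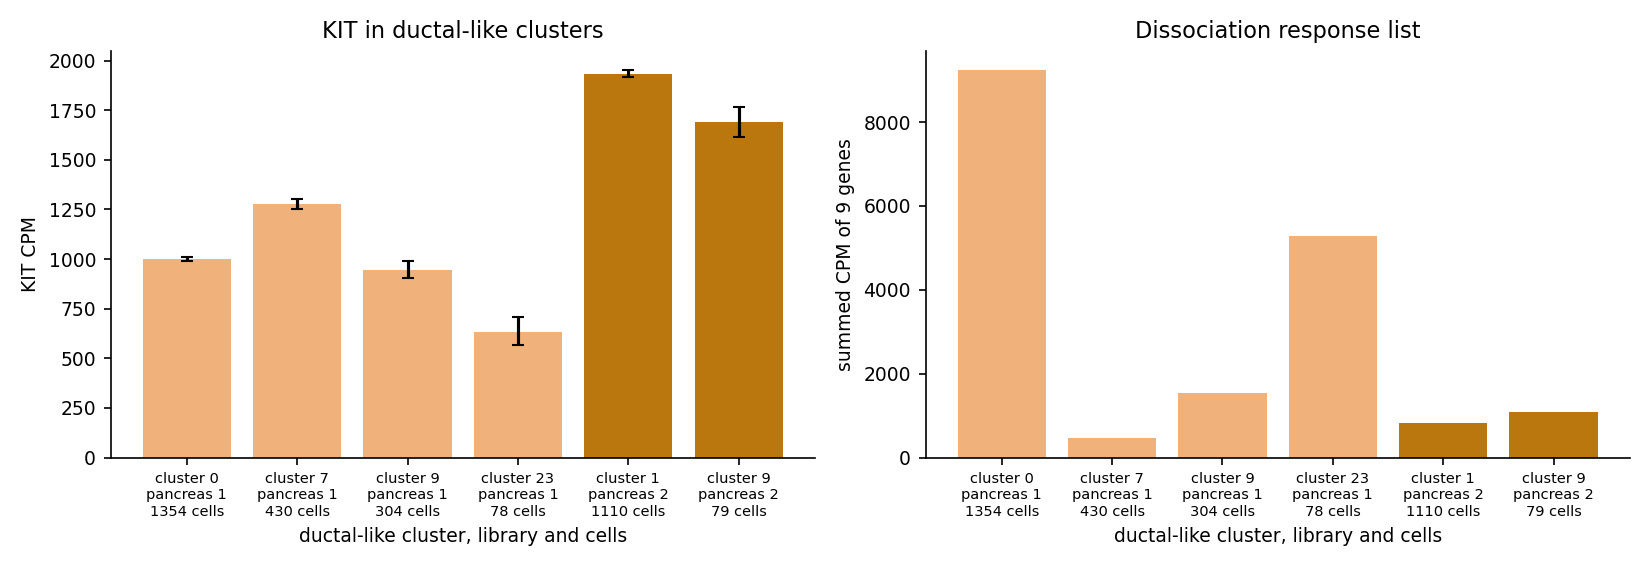
KIT in CPM (left, bars with 95% exact Poisson intervals) and the summed CPM of the 9 matched dissociation response genes (right) in each ductal-like cluster with at least 20 cells of a library, with the number of cells under each bar. KIT was 634 to 1276 CPM in primary pancreas 1 and 1690 to 1935 CPM in primary pancreas 2. The dissociation list was above 5000 CPM only in clusters 0 and 23. EREG and OSGIN1, which lead cluster 0, are on this list.

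Among the other primary classes, each summed as a whole, KIT was lower by a factor of 4.77 to 338. Single clusters could overlap. Immune-like cluster 13 of primary pancreas 2 (709.8 CPM) stood above ductal-like cluster 23 of primary pancreas 1 (634 CPM). Immune-like cells followed with 142.7 and 403.4 CPM (mean 273 ± 184, SD, n = 2) and endothelial-like cells with 125.6 and 217.7 CPM (172 ± 65.1). The values of these neighbours overlapped, so that their order is not resolved, and those of endothelial-like cells and PPDO overlapped as well. Below PPDO came Schwann-like cells with 56.3 CPM in primary pancreas 1, where 345 of them were found against 1 in primary pancreas 2. Their counting interval (48.1 to 65.4 CPM) held the value of PPDO 1, so that this order is not resolved. Stellate-like cells, the fibroblasts, smooth muscle cells and pericytes of the pancreas, had 29.7 and 48.4 CPM (39.0 ± 13.2). Acinar-like cells had 14.3 and 7.92 CPM (11.1 ± 4.51) and endocrine-like cells 7.69 and 5.70 CPM (6.69 ± 1.41). Stellate-like cluster 6, with ACTA2 and MYH11, had 13.2 CPM in primary pancreas 1 (440 cells), below acinar-like cells there, and 57.5 CPM in primary pancreas 2 (41 cells). Cluster 12, with DCN and LUM, had 49.0 CPM in primary pancreas 1 (313 cells) and 0 CPM in 7 cells of primary pancreas 2. The libraries of ductal-like cells lay above all of these, PPDO above stellate-like and stellate-like above acinar-like cells, without overlap of the library values, although the counting interval of stellate-like cells of primary pancreas 2 (29.9 to 74.0 CPM) reached past PPDO 1. With clusters at Leiden resolution 0.3 the place of acinar-like cells was lost, since they then had 14.3 and 76.9 CPM and overlapped both stellate-like cells and PPDO. Acinar-like and endocrine-like cells did not overlap either, but rested on 10 to 487 KIT UMIs with counting intervals that did. Clusters left without a name had 124.9 and 126.9 CPM, among them cluster 21, with TM4SF20 and S100A2 leading, at 152.8 CPM.

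**Figure D3:**
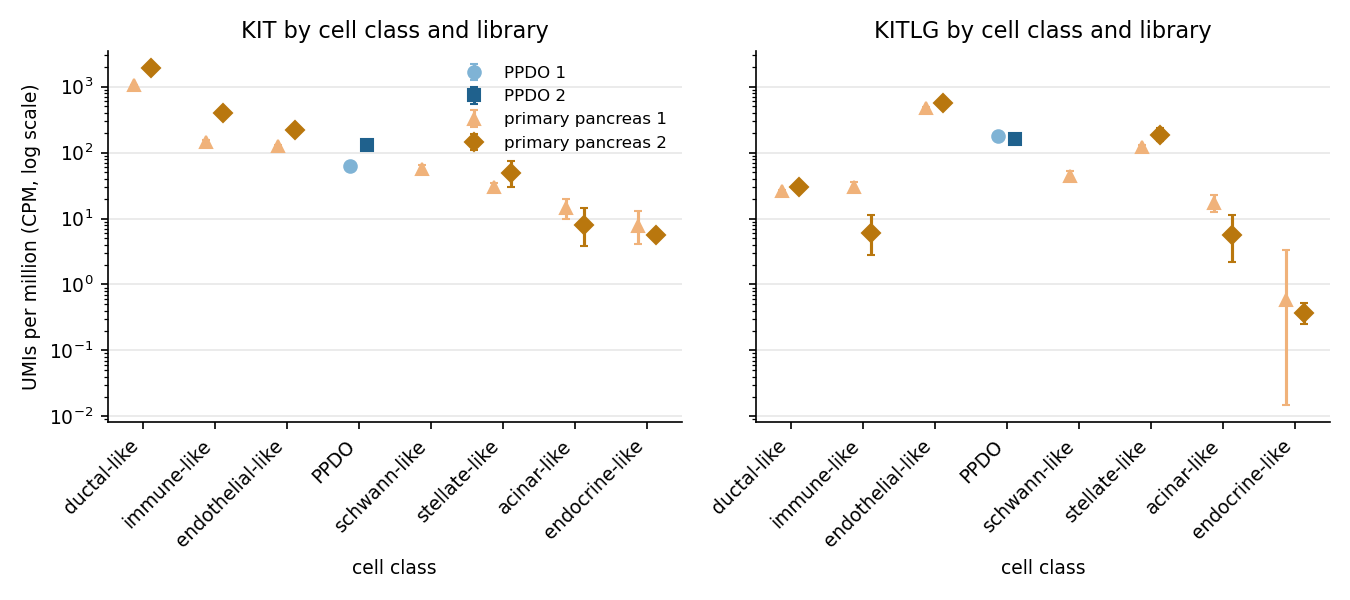
KIT (left) and its ligand KITLG (right) in CPM on a log scale, by cell class, with 1 point for each library and 95% exact Poisson intervals. KIT is highest in ductal-like cells of both pancreata (1044 and 1924 CPM), whereas KITLG is highest in endothelial-like cells (471.9 and 556.8 CPM).

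Free RNA released by broken duct cells can place KIT UMIs into droplets of other cells, and these counts carry no correction for it. As an estimate of it, KIT was set against other duct genes, at the ratio of all ductal-like cells of the same library, which was 39.4 KIT UMIs per 1000 UMIs of PKHD1, CFTR, SCTR and SLC4A4 in ductal-like cells of primary pancreas 1 and 63.6 in those of primary pancreas 2. The ratio was not the same in all ductal-like clusters, from 29.0 in cluster 23 to 48.0 in cluster 7 of primary pancreas 1, so that the amounts removed are approximate. In acinar-like cells the ratio was 43.3 and 76.3 per 1000, close to these values. In endothelial-like cells it was 1289 and 2522 per 1000, and in immune-like cells 180 and 2534. After removal of the KIT UMIs that duct RNA would carry at the ratio of the library, endothelial-like cells kept 121.7 and 212.2 CPM, immune-like cells 111.5 and 393.3 CPM, Schwann-like cells 27.6 CPM, stellate-like cells 3.74 and 38.4 CPM, endocrine-like cells 5.94 and 2.59 CPM, and acinar-like cells 1.26 and 1.32 CPM. The order of acinar-like and endocrine-like cells was thus turned round by the removal. For stellate-like cells the removal took KIT below the counting interval in primary pancreas 1 but not in primary pancreas 2, where the class had 48 cells and 21 KIT UMIs.

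Endothelial-like KIT was uneven between vessel clusters. It was highest in cluster 3 of primary pancreas 1 (168.9 CPM, 720 cells, with FLT1 and KDR, the VEGF receptors, among its leading genes) and in cluster 17 of primary pancreas 2 (282.6 CPM, 193 cells, with FLT1 and PLVAP). The cells of cluster 14, with SELP, an adhesion molecule of veins, had 54.2 and 48.9 CPM, and those of cluster 19, with GJA5 and SEMA3G, which mark arteries, had 19.9 and 54.9 CPM. Thinned to 3000 UMIs, 25.8% and 31.3% of all endothelial-like cells carried KIT.

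In the immune-like class KIT came from cells of different kinds. Most was in cluster 13, whose leading genes CD300C, SLC11A1, AIF1, FCER1G and MARCO are genes of myeloid cells. There KIT stood at 361.5 and 709.8 CPM, 69.6% and 92.2% of the 253 and 51 cells carried it without thinning (53.3% and 74.5% at 3000 UMIs), and the duct genes were nearly absent (165 and 84 UMIs against 562 and 533 of KIT). In cluster 11, with the T and NK cell genes GNLY, CCL5 and CD3E, only 7 of 254 and 5 of 74 cells held KIT. Of the KIT UMIs of that cluster, 95.2% and 94.0% sat in 2 cells of each library, the fullest with 59 and 36 UMIs. Their median depth was 8257 and 5294 UMIs, so that KIT per UMI was higher in them than in ductal-like cells as a class. These 4 cells, picked after their KIT values were seen, carried HDC (histidine decarboxylase, which makes histamine), MS4A2 (a chain of the IgE receptor), GATA2, HPGDS and IL1RL1, all of the mast cell list, and no CD3E. The 8 matched mast cell genes summed to 9507 and 12185 CPM in them, against 88.5 and 93.9 CPM in the other cells of cluster 11. In cluster 16, with the macrophage genes CD163, C1QA and MRC1, KIT was at 67.3 and 13.5 CPM, and in primary pancreas 1 92.4% of its 172 KIT UMIs were in 7 cells with a median of 32905 UMIs against 10827 in the rest. The ratio of KIT to duct genes in this cluster was 40.5 per 1000, next to the 39.4 of ductal-like cells. HDC was at 0 in cluster 16, but MS4A2 was at 273.1 and 365.2 CPM, the highest of the immune-like clusters, and the mast cell list summed to 182.8 CPM in the 7 cells and 335.1 CPM in the rest.

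Marker genes of the other cells known for KIT were summed in the same cells. The mast cell list summed to 12.6 and 23.01 CPM in ductal-like cells and to 32.6 and 29.96 CPM in PPDO, against 204.5 and 238.8 CPM in immune-like cells, and HDC was at 0 in ductal-like cells of primary pancreas 2. The melanocyte list (MLANA, PMEL, DCT, TYR and TYRP1) summed to 2.73 and 5.63 CPM in ductal-like cells and to 9.84 and 10.3 CPM in PPDO. For the interstitial cells of Cajal the list summed to 72.3 and 94.9 CPM in ductal-like cells, with 1 of its 5 genes at 10 CPM or more, to 106.6 and 105.7 CPM in PPDO, with 2 such genes, and to 693.5 and 753.3 CPM in stellate-like cells. The list was not specific in these cells, since it summed to 739.9 and 615.9 CPM in endocrine-like and to 196.0 and 217.0 CPM in endothelial-like cells, and to 55.5 and 87.6 CPM in immune-like and 21.04 and 25.3 CPM in acinar-like cells. Its gene in ductal-like cells was ANO10 (66.9 and 82.2 CPM, against 21.9 and 28.4 CPM in PPDO), whereas ANO1, the chloride channel that defines the cells of Cajal, was at 0.347 and 0.473 CPM there and at 76.5 and 71.2 CPM in PPDO. The other genes, ETV1, GJC1 and CNTN1, were under 10 CPM in both.

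In PPDO KIT varied from cluster to cluster. The lowest values were in cluster 0, with LGR6 (a receptor of R-spondins) and CXCL14 leading (10.4 and 45.1 CPM), in cluster 7, with the DNA replication genes DTL and MCM3 (7.79 and 63.1 CPM), and in cluster 5, with the mitosis genes CENPF and TOP2A (19.5 and 58.2 CPM). The highest by the mean of both libraries were in cluster 4, with ADM and EGLN1, genes that respond to low oxygen (211.3 and 252.3 CPM), and in cluster 2, with IGFBP6, NMB and NDRG1 (163.8 and 237.7 CPM). Between these stood clusters 1 (MMP3 and GPNMB, 57.9 and 142.6 CPM), 3 (IGFBP6 and LOXL2, 80.9 and 172.9 CPM) and 6 (SPRP, S100A8 and IVL, genes of cornifying epithelium, 100.5 and 186.4 CPM). Cluster 8, with SPP1 and WFDC2, had the highest ductal list sum (2891 and 3008 CPM) and KIT at 91.4 and 244.9 CPM, in PPDO 2 above cluster 2. All 18 sums of cluster and library thus lay below the 634 CPM of the lowest cluster named ductal-like, but several lay above the 152.8 CPM of the unnamed cluster 21, whose best list was ductal. The highest cluster exceeded the lowest 27.1-fold in PPDO 1 and 5.59-fold in PPDO 2.

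The pair of clusters led by low oxygen genes and by IGFBP6 and NMB, with high KIT, also held the most glycolysis transcripts. The glycolysis list (10 matched genes, such as ALDOA, PGK1, LDHA and BNIP3) summed to 37650 and 42989 CPM in cluster 4 and to 26508 and 29966 CPM in cluster 2, against 6317 and 6638 CPM in cluster 0 and 7079 and 8254 CPM in cluster 7. Cluster 8 was an exception in PPDO 2, with KIT at 244.9 CPM and the list at 12390 CPM. The WNT target list (LGR6, LGR5, LEF1, AXIN2 and others) summed to 457.9 and 426.8 CPM in cluster 0 and to 111.6 and 122.4 CPM in cluster 4, but was lowest in cluster 6 (81.8 and 65.5 CPM), where KIT was intermediate. Cells of cluster 4 were shallower, with a median of 18621 and 22226 UMIs against 38168 and 36185 in cluster 0. After thinning to 3000 UMIs the contrast remained, with 44.5% and 41.2% of cluster 4 cells carrying KIT against 2.57% and 11.5% of cluster 0 cells. The clusters were made from the same cells, KIT included, and clustering without KIT gave 10.7 and 44.3 CPM in the cluster led by HMCN1, CXCL14 and LGR6 and 198.2 and 217.7 CPM in that led by ADM and EGLN1. In PPDO 2 the latter was then no longer the highest, behind a cluster led by IGFBP6 and PTGS2 (242.0 CPM) and that led by SPP1 (238.1 CPM).

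PPDO 2 held more KIT than PPDO 1 in all 9 clusters, by 1.19-fold in cluster 4 to 8.10-fold in cluster 7. The mix of clusters differed, with 1099 cells of PPDO 1 and 136 of PPDO 2 in cluster 4. With the cluster shares of PPDO 1 given to both, the mean of cluster CPM weighted by cells was 75.3 in PPDO 1 and 137.4 in PPDO 2. The 62.8 and 130.8 CPM over all cells weight each cell by its UMIs, so these means do not compare with them directly. KITLG showed no such rise from PPDO 1 to PPDO 2, and its ratio of PPDO 2 to PPDO 1 was 0.923 over all cells and 0.711 to 1.40 over the clusters.

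**Figure D4:**
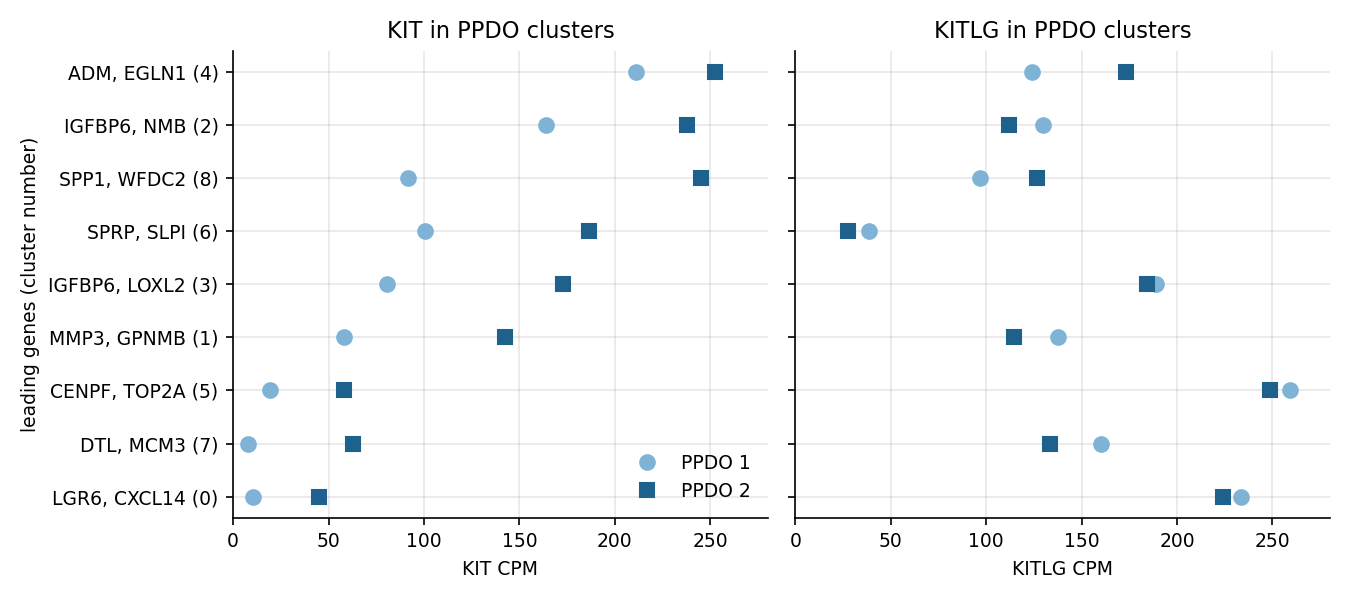
KIT (left) and KITLG (right) in CPM on linear axes in the 9 PPDO clusters, ordered by mean KIT and named by leading genes, with 1 point for each library. KIT falls from 211.3 and 252.3 CPM in the ADM and EGLN1 cluster to 10.4 and 45.1 CPM in the LGR6 and CXCL14 cluster, and PPDO 2 lies to the right of PPDO 1 in each.

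KITLG, the ligand, was highest in other cells of the pancreas than KIT. Endothelial-like cells had 471.9 and 556.8 CPM and stellate-like cells 122.7 and 186.6 CPM, and endothelial-like cells alone held 71.0% and 64.1% of KITLG UMIs. Ductal-like cells had 25.7 and 29.6 CPM and, being many, the next largest share (13.9% and 29.5% of KITLG UMIs), immune-like cells 30.5 and 6.02 CPM, and endocrine-like cells 0.591 and 0.375 CPM, the first of which is 1 UMI in 101 cells. In PPDO KITLG was at 175.7 and 162.2 CPM, a mean of 169 ± 9.53 CPM (SD, n = 2) against 27.7 ± 2.75 CPM in ductal-like cells. At 10000 UMIs per cell 64.5% and 61.8% of PPDO cells carried KITLG, against 16.2% and 20.8% of ductal-like cells. Both genes were seen in the same PPDO cell in 20.5% and 30.4% of cells, where the product of the separate shares is 22.7% and 31.8%. KITLG was highest in cluster 5 (259.4 and 248.7 CPM) and cluster 0 (233.4 and 224.3 CPM), where KIT was low, and lowest in cluster 6 (38.6 and 27.5 CPM). Across the 18 sums of PPDO cluster and library the correlation of log2 levels of KIT and KITLG was r = -0.43, a description of points that share libraries and depth.

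The genes around KIT were tested between PPDO and ductal-like cells on UMI sums per library, with edgeR's quasi-likelihood test fitted and adjusted (Benjamini-Hochberg) over all 23543 genes with enough counts. At an adjusted p under 0.05, 43.7% of all genes differed, 22.9% higher and 20.9% lower in PPDO, so that a list is read against a broad background. Without PPDO 1 or PPDO 2 the share fell to 23.3% and 21.1%, and the list genes called from 36 to 25 and 21. KIT itself took no test. Of 75 list genes 36 passed, 24 higher and 12 lower (48%), or 20 higher and 19 lower without scaling, and the median log2 fold change of the 75 was 0.16 against 0.01 over all genes. Libraries of a group are single lines or pigs, and the p-values rest on the spread between these. The test also draws the variance of each gene towards a trend over all genes, so part of that spread is borrowed. Fold changes below are log2 of PPDO over ductal-like cells after TMM scaling. The SE printed with each is the size of the change over the square root of the test's F, not a direct estimate. It can come out small where a group has few UMIs. It was below the SE of DESeq2 for TFAP2A (0.22 against 0.53) and ETV5 (0.30 against 0.42), but above it for LMO2, MYC and CSF1. Without scaling the median of all genes moves to -0.45, and the share of higher calls from 52.3% to 31.9%.

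Of the 12 receptors related to KIT and their ligands, 3 were higher, 3 lower and 6 did not pass (50% called). KITLG rose by 3.07 on the log2 scale (SE 0.13, adjusted p = 0.000461 by edgeR), and FLT3LG, the ligand of FLT3, was at 1179 and 1034 CPM in PPDO and 325 and 339 CPM in ductal-like cells (2.19, SE 0.15, adjusted p = 0.00115 by edgeR). IL34, a ligand of CSF1R, rose less (0.87, SE 0.21, adjusted p = 0.0278 by edgeR), from 14.5 and 17.1 CPM to 18.3 and 23.6 CPM, a call lost with a replicate block (adjusted p = 0.0503 by edgeR), without scaling, and without PPDO 2 or either primary library. PDGFD, a ligand of PDGFRB, was at 783 and 960 CPM in ductal-like cells and at 2.14 and 2.60 CPM in PPDO (-8.06, SE 0.23, adjusted p = 0.000318 by edgeR). CSF1 was at 40.1 and 14.8 CPM in ductal-like cells and at 3.93 and 3.70 CPM in PPDO (-2.45, SE 0.59, adjusted p = 0.0283 by edgeR), a call that was lost when either PPDO library was left out. The receptors PDGFRA, PDGFRB, CSF1R and FLT3 were under 1 CPM in all 4 sums.

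Of 28 genes that carry the KIT signal, 4 were higher, 5 lower and 19 did not pass, a share of 32.1% against 43.7% of all genes. The adaptor GAB2 fell from 31.4 and 21.8 CPM to 3.04 and 1.40 CPM (log2 -3.17, SE 0.49) and its relative GAB1 from 318 and 271 CPM to 69.2 and 65.1 CPM (-1.69, SE 0.20). The SRC family kinase LYN fell from 18.3 and 20.8 CPM to 2.50 and 1.76 CPM (-2.74, SE 0.24), while FYN, of the same family, rose from 8.49 and 4.61 CPM to 16.5 and 17.4 CPM (1.78, SE 0.41). PIK3CD, a catalytic subunit of PI3 kinase, rose from 3.19 and 3.78 CPM to 15.6 and 13.1 CPM (2.50, SE 0.19), and MAP2K2, the ERK kinase MEK2, from 67.7 and 73.5 CPM to 133 and 118 CPM (1.29, SE 0.13). The adjusted p of these 6 genes ran from 0.00148 to 0.0249 (edgeR), the last for FYN, which lost the call without either PPDO library. The adaptor GRB2, the exchange factor SOS1, PIK3CA and MAPK3 were among the genes that did not pass.

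Of 11 inhibitors and shedding genes, 4 were higher, 2 lower and 5 did not pass (54.5% called). ADAM17, the protease that sheds KIT from the cell surface, rose from 25.6 and 32.5 CPM to 46.6 and 44.3 CPM (log2 1.11, SE 0.13, adjusted p = 0.00408 by edgeR). CBL, the ubiquitin ligase that sends KIT to degradation, passed at 0.48 (SE 0.13, adjusted p = 0.0379 by edgeR), but its CPM overlapped (60.7 and 57.9 in PPDO, 56.0 and 60.3 in ductal-like cells), it was 0.03 without scaling, and its call was lost with a replicate block (adjusted p = 0.0842 by edgeR) and without either PPDO library or primary pancreas 2. PTPN6, the phosphatase SHP-1, fell from 26.04 and 31.6 CPM to 8.40 and 8.22 CPM (-1.33, SE 0.15, adjusted p = 0.00367 by edgeR), and the adaptor GRB10 from 34.9 and 25.5 CPM to 7.27 and 7.12 CPM (-1.63, SE 0.28, adjusted p = 0.011 by edgeR), the latter not called without either PPDO library.

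Of 10 transcription factors known to act on KIT, 4 were higher, 2 lower and 4 did not pass (60% called). MITF, the factor that drives KIT in melanocytes and mast cells, was at 223 and 292 CPM in ductal-like cells and at 52.9 and 56.2 CPM in PPDO (log2 -1.77, SE 0.14, adjusted p = 0.00157 by edgeR). TFAP2A, a factor of skin and neural crest, was at 0.116 and 0.158 CPM in ductal-like cells and at 224 and 240 CPM in PPDO (11.2, SE 0.22, adjusted p = 0.000298 by edgeR). LMO2, a partner of TAL1 in blood cells, rose from 1.06 and 0.355 CPM to 32.5 and 20.5 CPM (5.55, SE 0.64, adjusted p = 0.00376 by edgeR). SP1, ETS1 and RUNX1 did not pass.

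The ERK output and feedback list had the largest share of calls of the 5 lists, near the 60% of the transcription factors. Of its 14 genes 9 were higher in PPDO (64.3%, against 22.9% of all genes higher), 0 lower and 5 not passed. The median log2 fold change was 1.90. All 5 lists were chosen with earlier results of these data known, so such shares are a description and no independent evidence. ETV5 and ETV4, ETS factors induced by ERK, stood at 13.8 and 12.1 CPM and at 30.6 and 27.5 CPM in PPDO against 0.301 and 0.236 CPM and 3.77 and 3.51 CPM in ductal-like cells. Their changes were 6.0 (SE 0.30, adjusted p = 0.000634 by edgeR) and 3.44 (SE 0.20, adjusted p = 0.000868 by edgeR). MYC rose from 3.28 and 0.433 CPM to 44.1 and 46.7 CPM (4.93, SE 0.97, adjusted p = 0.0164 by edgeR), and missed the threshold without either PPDO library. Its change was 5.01 and 4.85 without PPDO 1 and 2, and 7.24 and 4.10 without primary pancreas 1 and 2. The others that passed were DUSP6, SPRY1, SPRY2, SPRY4, SPRED1 and SPRED2, all feedback inhibitors of the cascade, at log2 changes of 1.45 to 3.36. EGR1, on the dissociation list as well, and DUSP5 differed between the pancreata (EGR1 1001 and 201 CPM, DUSP5 77.1 and 5.04 CPM) and did not pass.

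**Figure D5:**
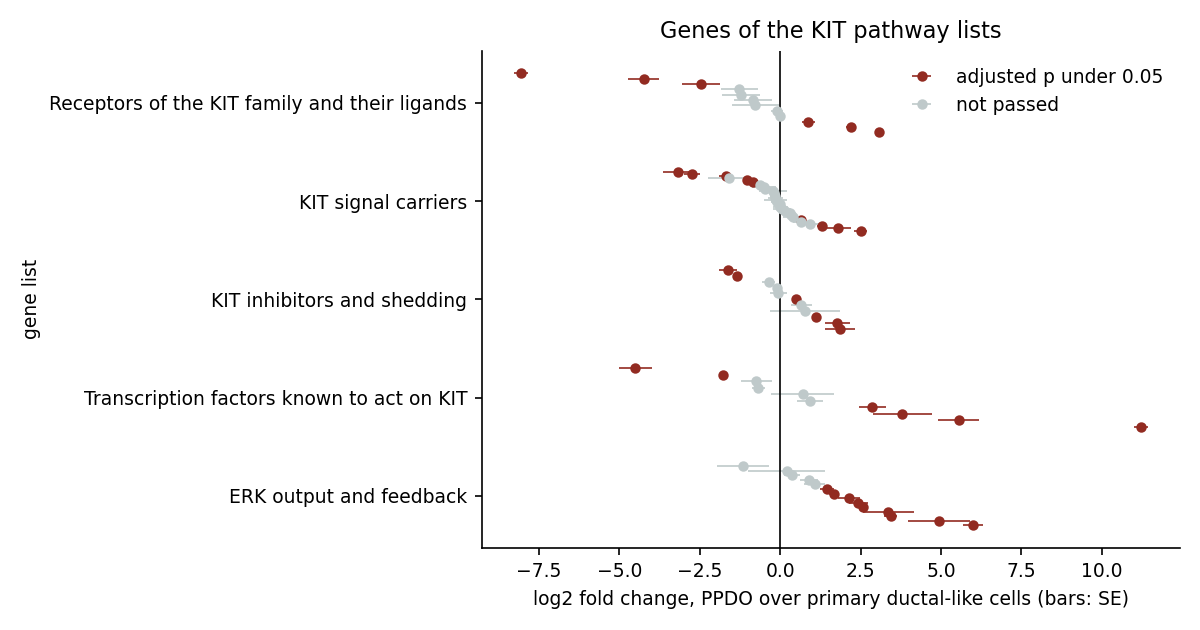
Log2 fold change of PPDO over ductal-like cells (horizontal axis) for the 75 genes of the 5 lists (vertical axis). Bars give the SE derived from the F of the test. Genes at an adjusted p under 0.05 are in dark red and the others in grey. The ERK output and feedback list has 9 genes to the right of 0 in dark red and none to the left, whereas the signal carriers lie on both sides, with 4 dark red genes to the right and 5 to the left.

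The genes most like KIT were sought over 14 sums, 12 of primary class and library with at least 50 cells and 2 of PPDO, by Pearson's r of log2(CPM + 1) among 10217 genes with a symbol and at least 20 CPM in some sum. The first 8 were PLEKHM1 (r = 0.955), CMAS (0.951), SP1 (0.929), DUSP22 (0.927), NCAPH (0.926), GGA1 (0.926), MAU2 (0.923) and EBAG9 (0.922). PLEKHM1, for example, was at 49.98 and 72.6 CPM in ductal-like cells, 19.3 and 21.8 CPM in endothelial-like cells and 15.7 and 17.9 CPM in PPDO, a far flatter range than that of KIT. KITLG stood at r = 0.433, rank 5495. The ranking depended on the measure: by Spearman's rho only 1 of the 8 stayed among the first 8, and over the primary sums alone 3 did. The sums of a library share its depth and free RNA, and no p is given.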

How the data were processed

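Cells were profiled by droplet scRNA-Seq with 3ʹ chemistry. The authors aligned reads with Cell Ranger to an improved pig annotation and deposited raw UMI counts per feature and cell, before their correction for free RNA, along with lists of barcodes and features. Libraries were grouped by the labels, with 2 per group. The 56060 features per library were summed by gene ID. Symbols were attached afterwards, and genes that share a symbol kept their IDs as names. The limits on cells and the doublet scores followed the study: at most 3% mitochondrial UMIs and 1000 to 9000 features in PPDO (the study used a lower limit for 1 line), and at most 8%, at least 400 or 800 features, over 3000 UMIs in primary pancreas 2 and scrublet thresholds of 0.25 and 0.15 in primary libraries, which removed 84 and 141 doublets. No doublets were removed from PPDO. Primary and PPDO cells were clustered apart with scanpy 1.11.5 (2000 variable genes, 20 components, 15 neighbours, Leiden resolution 0.5).

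Total UMIs were taken over kept cells, and intervals and floors cover counting error only. UMI sums per library were tested with edgeR 4.0.16 in R 4.3.3 (filterByExpr, TMM, quasi-likelihood test, Benjamini-Hochberg adjustment over all genes), with DESeq2 1.42.0 as an alternative. In simulated counts over 23543 genes, 200 were given a known fold change. Of these, 57.4% were called at a log2 fold change of 2, 95.5% at 3 and 100% at 5. Of the unchanged genes 0.0214% were called. In the data 43.7% of genes were called, a far larger share than was changed in the simulation, so the simulated rates need not hold here. For single values 2 against 2 libraries cannot give an exact two-sided p under 0.333. KIT, its lists and the markers were chosen with earlier results of these data known. Genes named were KITLG, the called list genes with at least 10 CPM in the higher group and the 3 largest changes in each direction of a list, and the 8 genes most like KIT. Other list genes are named in groups, and EGR1 and DUSP5 were named after their values were seen. AKT1, KRT19 and MUC1 were not matched by symbol. Likeness used log2(CPM + 1). Some genes of the lists are not reported here by name.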

Additional observations from a re-analysis of the deposited data

How the results depend on the processing

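KIT in ductal-like cells stayed within 1 SD of its mean (1319 to 1498 CPM) with features without an extension only, 1 cell filter for all libraries, doublets kept, other clustering or, chosen after seeing the data, cluster 9 alone. Without 1 library it was 1044 to 1924 CPM, against 62.8 to 130.8 CPM in PPDO. There was no KIT feature without a suffix, and no value came from clusters with at least 10% of the ductal-like cells of each library. PPDO cells of the cluster with the highest ductal list score had 168.1 CPM. The share of PPDO cells with KIT moved with depth, to 31.3% at 5000 UMIs, 43.4% at 10000 and 61.8% unthinned. Without 1 library the thinned shares were 86.6% to 96.8% and 17.2% to 26.9%, and the other classes together had 19.2 to 86.9 CPM. KIT in acinar-like cells rose to 45.6 CPM at resolution 0.3, above the 39.0 CPM of stellate-like cells. Of the 8 genes most like KIT, 1 was shared by Spearman's rho and 3 over primary sums only. Of 75 list genes 36 were called, 33 with a replicate block (correlation of same-numbered deviations -0.01, so the numbers share only a number), 21 against all primary cells, and 21 to 46 when 1 library was left out: 25 without PPDO 1, 21 without PPDO 2, 43 and 46 without primary pancreas 1 and 2. Over all genes 10297 were called, 5012 and 4548 without PPDO 1 and 2, and 6358 against all primary cells. There FYN reversed (log2 -1.89, adjusted p = 0.0163 by edgeR) and 10 named genes missed the threshold: KITLG (1.85, adjusted p = 0.113 by edgeR), LMO2 (0.73, adjusted p = 0.564 by edgeR), GAB1, PIK3CD, ADAM17, PTPN6, CSF1, IL34, CBL and MYC. Of 21 named genes 9 passed in every alternative run. The causes were not tested.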

Other observations

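Over the 18 sums of PPDO cluster and library, the genes most like KIT among 7470 were CHURC1 (Pearson's r of log2 levels 0.926), IGFBP1 (0.920), a gene known to respond to low oxygen, ATP6AP1 (0.910), a subunit of the proton pump of lysosomes, and SGPP2 (0.907). The genes that ran most against it were EFR3B (r = -0.943), SNRNP70 (-0.927) and LONP2 (-0.924). This ranking was added after the cluster values were seen. The sums share libraries and depth, so no p is given.

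In endothelial-like cells KIT and KITLG were seen together at 10000 UMIs per cell in 40.7% and 52.3% of cells, where the product of the separate shares is 37.5% and 52.4%. This depth left out 617 of 1072 and 137 of 265 endothelial-like cells. KITLG was at 617.8 CPM in cluster 3 of primary pancreas 1 and at 626.9 CPM in cluster 17 of primary pancreas 2, the clusters in which endothelial-like KIT was highest. In cluster 19 of primary pancreas 2 (21 cells) KITLG was higher still, at 721.9 CPM, with KIT at 54.9 CPM.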
